A study of Mus musculus with 5 samples.

Results

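The late pair of libraries in an ATAC-seq time course of neural induction, taken at 1.5 and 2 h, was compared with the early pair, taken at 0 and 1 h. Members were these 4 of the 5 libraries of the series, chosen by their labelled times, and the 0.5 h library was kept aside and set beside them. The cells were C17.2, an established and immortalised line of mouse multipotent neural stem cells, of CD1 x C57BL/6 strain background, labelled as neural progenitor cells. The 0 h library is the control, from cells kept in DMEM/F12 with 10% serum. The other libraries came from cells at 0.5, 1, 1.5 or 2 h after induction in serum-free medium with N2 supplement. The labels list neural induction as the treatment of all 5 samples, the control included. There was 1 library per time from a single cell line, so times stood in for replicates and the comparison holds no replicate of any time.

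ATAC-seq uses a transposase that inserts adapters into accessible DNA, so that intervals rich in insertions mark open chromatin. Open chromatin is found at the promoters of most active genes, and it is also found at promoters held ready for activation. Neural stem cells leave the dividing state when serum mitogens are withdrawn and neurogenic supplements are given, a change known to involve Notch, Wnt, TGF-beta and growth factor signalling, proneural transcription factors, chromatin regulators and a turn from glycolysis to mitochondrial respiration.

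The table gave 34714 short sites called transcription start sites, each with 1 whole number between 0 and 10 in every library. The number was taken to be how many entries in the BED file of the library (a list of genomic intervals) overlap the site. A site was called covered where it held 1 or more entries. Entries are neither reads nor normalised signal, and how deeply each library was sequenced is unknown. A value of 0 does not show closed chromatin. The sites carried 8034 gene symbols, and each gene was described at the 1 site whose mean was highest in the 4 libraries compared. A site or gene was called separated where both late values lay above, or both below, both early values, and its gap is the number of entries between the nearer values of the pairs. An exact two-sided permutation test over 4 libraries cannot go below p = 0.333, so no test was made and every count is a description of these libraries.

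Some of the genes described below had their site inside the 300 bases around an annotated start that RefSeq gives for build GRCm38.p6. A set of 6 such promoters is shown because their sites separated the pairs, 3 with the late values higher and 3 with them lower. Each runs 5′ to 3′ on the gene's strand, from 250 bases before the start to 50 after it, and the capitals mark the deposited site.
Foxp1 (chr6:99028249-99028548, minus strand): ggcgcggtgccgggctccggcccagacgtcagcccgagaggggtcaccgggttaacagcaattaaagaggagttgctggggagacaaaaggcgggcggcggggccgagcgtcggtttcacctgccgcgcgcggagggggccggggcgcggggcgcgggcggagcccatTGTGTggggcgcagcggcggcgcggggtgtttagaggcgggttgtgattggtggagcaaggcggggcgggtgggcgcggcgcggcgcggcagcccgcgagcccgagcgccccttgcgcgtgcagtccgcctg
Rictor (chr15:6708131-6708430, plus strand): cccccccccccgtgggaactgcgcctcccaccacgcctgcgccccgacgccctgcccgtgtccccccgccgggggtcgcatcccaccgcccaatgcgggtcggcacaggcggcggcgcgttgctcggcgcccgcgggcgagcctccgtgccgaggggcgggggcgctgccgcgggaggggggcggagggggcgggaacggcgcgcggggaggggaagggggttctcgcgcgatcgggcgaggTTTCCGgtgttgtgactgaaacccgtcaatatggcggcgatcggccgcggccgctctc
Trak1 (chr9:121297252-121297551, plus strand): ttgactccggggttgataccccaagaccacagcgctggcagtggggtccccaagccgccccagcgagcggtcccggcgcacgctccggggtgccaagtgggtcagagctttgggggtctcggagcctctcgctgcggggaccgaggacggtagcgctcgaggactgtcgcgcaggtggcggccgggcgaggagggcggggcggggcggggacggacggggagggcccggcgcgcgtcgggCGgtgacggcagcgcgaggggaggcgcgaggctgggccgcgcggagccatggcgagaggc
Tmem267 (chr13:119488223-119488522, plus strand): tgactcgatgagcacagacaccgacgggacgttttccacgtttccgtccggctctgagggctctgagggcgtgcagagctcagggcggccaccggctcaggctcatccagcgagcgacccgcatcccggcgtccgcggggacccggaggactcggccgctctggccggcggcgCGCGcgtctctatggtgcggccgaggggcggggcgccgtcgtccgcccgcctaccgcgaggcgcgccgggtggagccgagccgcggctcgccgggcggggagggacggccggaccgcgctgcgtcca
Eya4 (chr10:23349894-23350193, minus strand): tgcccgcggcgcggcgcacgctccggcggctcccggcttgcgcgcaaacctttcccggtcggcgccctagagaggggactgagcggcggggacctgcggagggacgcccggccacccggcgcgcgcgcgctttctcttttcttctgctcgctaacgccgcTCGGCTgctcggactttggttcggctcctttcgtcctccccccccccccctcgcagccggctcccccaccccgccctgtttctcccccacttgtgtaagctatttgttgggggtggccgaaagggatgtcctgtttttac
Rffl (chr11:82871161-82871460, minus strand): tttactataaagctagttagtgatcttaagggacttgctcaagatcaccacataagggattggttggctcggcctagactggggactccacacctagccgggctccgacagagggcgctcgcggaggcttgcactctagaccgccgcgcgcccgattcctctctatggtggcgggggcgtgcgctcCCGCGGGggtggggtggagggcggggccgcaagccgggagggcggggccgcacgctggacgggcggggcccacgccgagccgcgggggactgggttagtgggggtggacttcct
The first 3 had higher values in the late pair. The Foxp1 site lies at an internal start, 494368 bp downstream of the gene's annotated 5′ end. Foxp1, a forkhead transcriptional repressor, held 2 entries at 0 h, 1 at 1 h and 7 at both late times, a call shared by 5 of its 14 sites. Rictor, the defining subunit of mTOR complex 2, held 2 at both early times, 5 at 1.5 h and 7 at 2 h, and Trak1, a kinesin adaptor for mitochondrial transport, held 0 at both early times, 2 at 1.5 h and 4 at 2 h. The last 3 had lower values. Tmem267, a membrane protein gene, and Eya4, an eyes-absent transcriptional coactivator and phosphatase, each held 5 entries at both early times, with 2 and 2 and with 2 and 3 at the late times. Rffl, a ubiquitin ligase, held 5 and 4 early and 2 at both late times.

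More sites lay above than below in the late pair. Of the 34714 sites, 6734 (19.4%) were separated with the late values above and 1241 (3.57%) with them below. A gap of 2 or more entries was reached by 3681 sites (10.6%) above and 185 (0.533%) below. Neighbouring sites can lie under 1 interval, and when sites at most 500 bp apart were merged into 9217 regions, 1031 (11.2%) lay above and 403 (4.37%) below. Of the 8034 genes, 990 (12.3%) lay above and 398 (4.95%) below, and 1557 held 0 in all 4 libraries and could not be called. Such a gap was reached by 313 genes (3.9%) above and 43 (0.535%) below. The 2 directions also differed in how often a pair held 0. Among the genes above, 264 (3.29% of all genes) held 0 at both early times, 127 had 1 early library covered and 599 were covered in both. Among those below, only 5 (0.0622% of all genes) reached 0 at both late times. The most frequent set of values was a step of 1 entry in both directions. Above, it was 2 entries at both early and 3 at both late times, in 92 of the 990 genes. Below, it was 3 entries at both early and 2 at both late times, in 99 of the 398 genes. The gap between the nearer values was 1 entry in 677 genes above and 355 below, and the pair means were at most 1 entry apart in 251 (25.4%) and 192 (48.2%). A further 1437 genes touched at 1 shared value with the late mean higher, and 1244 with it lower. Atp5j, an ATP synthase subunit gene, stood just inside with 0, 4, 5 and 5 entries at 0, 1, 1.5 and 2 h, and Nek6, a mitotic kinase gene, just outside with 0, 5, 5 and 5.

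The direction moved with the overall number of entries. The totals over all sites were 42527 at 0 h and 45254 at 1 h against 65824 at 1.5 h and 59437 at 2 h, and 47.6% and 51.2% of sites were covered early against 66.9% and 65.7% late. The part of this library-wide difference in the calls was not tested. Divided by these totals, 694 genes (8.64%) lay above and 3190 (39.7%) below, so that the share of calls that lay above went from 71.3% to 17.9%. That scaling places below every one of the 1132 genes with the same non-zero number in all 4 libraries. Of the genes called on the entries as deposited, 694 of 990 above and 398 of 398 below kept their call under it, among them all 15 and 16 genes described next. It multiplies the values at 0 and 1 h by 1.25 and 1.18 and those at 1.5 and 2 h by 0.809 and 0.896. A call below therefore could not be lost under it, and only the calls above could fail. Without the 1 h library the gene counts were 1699 and 1107, and without the 2 h library they were 1715 and 646, as an order over 3 libraries is easier to meet than one over 4.

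Within each pair the libraries were closer than across pairs. Over sites, the mean absolute difference was 0.538 entries between 0 and 1 h and 0.511 between 1.5 and 2 h, against 0.764 to 1.00 for the 4 combinations of an early and a late library. Over genes the margin was narrower, with 0.598 and 0.499 within the pairs and 0.631 to 0.772 across them. The 1 h and 2 h libraries were thus nearly as close over genes as the 2 early libraries. The 0.5 h library was closest to 1 h by both measures, at 0.573 over sites and 0.574 over genes. It was not closer to 0 h than to the late pair. Over sites it differed by 0.699 from 0 h, 0.700 from 1.5 h and 0.678 from 2 h. Over genes these values were 0.639, 0.599 and 0.619.

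**Figure D1:**
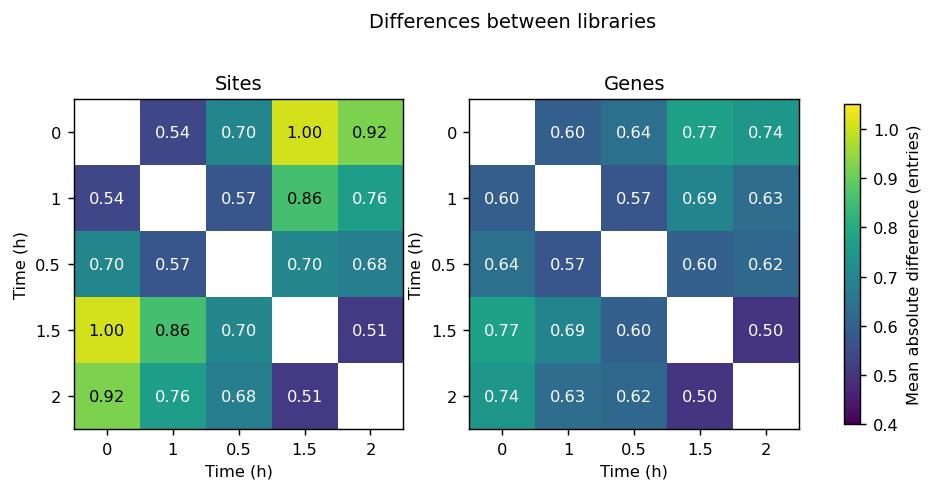
Mean absolute difference in entries between each pair of libraries, over 34714 sites (left) and over 8034 genes (right), with the axes in hours and the 0.5 h library placed between the early and late pairs. The 2 within-pair values over sites, 0.538 and 0.511, are the lowest there, and 0 against 1.5 h, at 1.00, is the highest.

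The widest gaps with the late pair above were at a receptor for Wnt ligands and at a nuclear hormone receptor. Fzd8, a Frizzled receptor, held 0 entries at 0 and 1 h and 7 at 1.5 and 2 h, as did Nr3c1, the glucocorticoid receptor gene. The Nr3c1 site lay 29700.5 bp downstream of the gene's annotated 5′ end. The call was shared by 13 of the 16 sites of Nr3c1 and by 1 of the 2 of Fzd8. Kdm7a, a histone lysine demethylase gene, held 0 at both early times, 7 at 1.5 h and 6 at 2 h, and all 21 of its sites, on chromosome 6 from 39205958 to 39206929, shared the call. Zic5, a zinc finger factor of neural and neural crest development, held 0 and 0 against 6 and 6 (chromosome 14, 122464431 to 122464432). These 4 genes held no entry at either early time and 6 or 7 at both late times.

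Smurf2, a ubiquitin ligase that targets Smad proteins and the TGF-beta receptor, held 0 entries at both early and 5 at both late times (chromosome 11, 106920345 to 106920351). Skil, a repressor of Smad-dependent transcription, held 0 and 0, then 7 and 4. Usp9x, a deubiquitinase, held 0 and 0, then 6 and 5. These 3 were uncovered early. Dyrk2, a protein kinase, held 0 and 1, then 6 and 5, and Pde3b, a phosphodiesterase that degrades cyclic AMP, held 1 and 0, then 6 and 5. Tsc22d2, of the TSC22 domain family, held 1 and 2, then 7 and 8, the highest late values of this group. Runx2, the osteoblast transcription factor, held 0 and 0, then 4 and 7. The sites of Dyrk2 and Runx2 lay 20759.5 and 78632 bp downstream of the annotated 5′ ends of these genes.

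Sgms1 and Nsmaf were uncovered at 0 and 1 h. Sgms1, a sphingomyelin synthase, held 5 entries at 1.5 h and 6 at 2 h, and Nsmaf, an adaptor of neutral sphingomyelinase activation, held 5 at both. Lrrc41 held 2 at both early and 7 at both late times. At 0.5 h, Foxp1 and Lrrc41 already held 7 entries and Nsmaf and Zic5 5, whereas Fzd8, Nr3c1 and Sgms1 held 0. The 15 genes therefore shared their early and late order, which the rule fixed, and not their 0.5 h value.

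Genes with the late pair below had narrower gaps, with none above 3 entries. Tmem267, described above, had a gap of 3, which a Rik gene in the same region shared. Cntnap1, a paranodal adhesion protein gene, held 7 entries at 0 h and 4 at 1 h, then 2 at both late times, so its early libraries differed by more than its pairs were apart. Kif5c, a neuronal kinesin heavy chain, held 3 and 2, then 0 and 0 (chromosome 2, 49619928 to 49619931). It was 1 of the 5 genes covered at both early times and uncovered at both late ones. The others, named after their values were seen, were Cic, a transcriptional repressor downstream of receptor tyrosine kinases, with 7 and 1 entries early, the proteoglycan gene Gpc4 with 1 and 2, and 2 predicted genes with 1 each.

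Nup153, a nuclear pore basket protein, and Prkce, the epsilon isoform of protein kinase C, each held 5 and 6 entries early and 3 at both late times. Hacd1, a dehydratase of very-long-chain fatty acid synthesis, held 5 and 4, then 2 and 2, at all 12 of its sites. Fkbp9, a prolyl isomerase of the endoplasmic reticulum, held 4 and 5, then 2 and 2. Slc7a1, a cationic amino acid transporter, held 6 and 6, then 3 and 4. Each of these stayed covered in all 4 libraries.

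Guf1, a mitochondrial translation factor, held 4 entries at both early times, then 2 and 1. The neighbouring genes Entpd5 and Bbof1, within 1 merged region of chromosome 12, also held 4 and 4, then 2 and 1. Ccny, a membrane-associated cyclin, and Ppp1r12a, the myosin phosphatase targeting subunit, each held 4 and 4, then 1 and 2. Ppp2r3d, a regulatory subunit gene of protein phosphatase 2A, held 7 and 7, then 5 and 4, at a site 53479.5 bp downstream of its annotated 5′ end. At 0.5 h, Guf1 and Ppp2r3d still held their early numbers and Cntnap1, Eya4, Ccny and Ppp1r12a held 2.

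**Figure D2:**
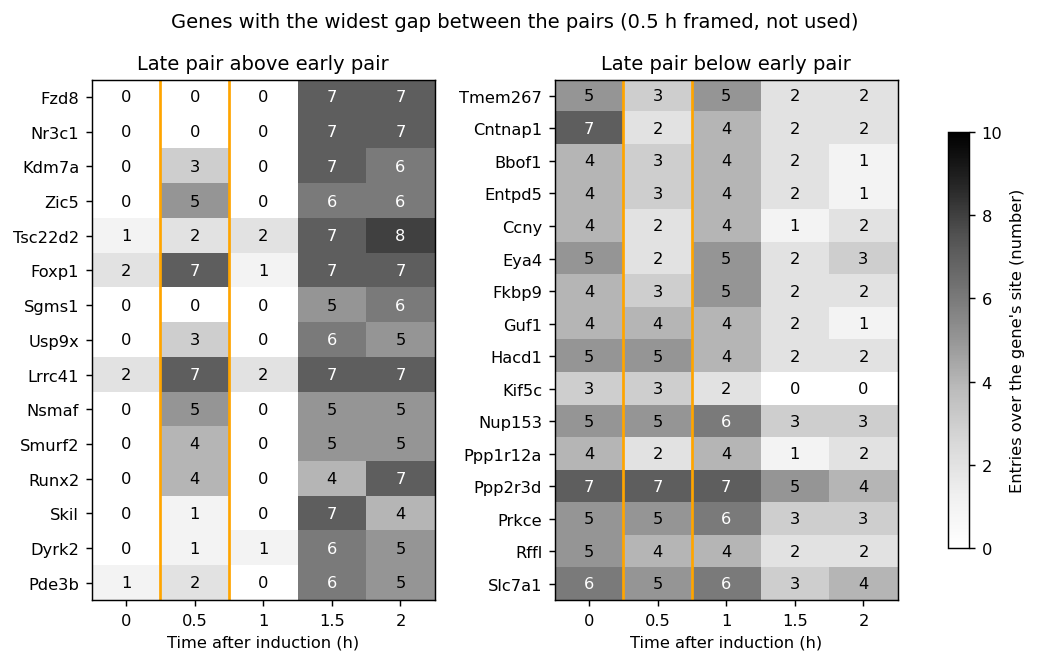
Entries over the site of each gene (number in each cell, grey scale from 0 to 10) at 0, 0.5, 1, 1.5 and 2 h for the genes with the widest gaps, late above early on the left and late below early on the right, with the unused 0.5 h column framed. On the left 10 of the 15 genes hold 0 at both early times, and on the right only Kif5c reaches 0 late.

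Gene groups were compared with all genes, of which 12.3% lay above and 4.95% below, with a median difference of pair means of 0 and a mean of 0.215 entries. Of all genes, 19.4% held 0 in all 4 libraries and could not be called. The circadian and G1/S lists had 0 such genes and the proneural list 10 of 25, so shares of lists and of all genes rest on unlike bases. Counts after division by the library totals, where all genes gave 8.64% above and 39.7% below, are given beside each group, since under it only the circadian and proneural lists had more genes above than below. The lists were drawn up with earlier results of these data known and overlap in a few genes. Some members had a site far from the annotated 5′ end, among them Bcl9, Pfkfb3 and Arntl. Their sites lay 70797.5, 52509.5 and 29093.5 bp downstream of it.

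Growth factor signalling genes lay above more often than below. Of 34 measured genes of receptor tyrosine kinase, RAS and PI3K signalling, 9 (26.5%) lay above and 0 below, with a median difference of 0.5 entries, and after division by library totals 6 lay above and 13 below. Besides Rictor, Sos1, a RAS exchange factor, held 2 and 2 early and 4 and 4 late, and the adaptor Grb2 held 1 and 2, then 4 and 3. The feedback inhibitors were among them, with Spry1 at 1 and 0, then 4 and 2, Spry2 at 2 and 2, then 5 and 3, and Spred1 at 3 and 2, then 5 and 4. Rptor, the defining subunit of mTOR complex 1, held 0 and 2, then 3 and 3, and its substrate kinase Rps6kb1 held 2 and 0, then 3 and 3. Activators, inhibitors and mTOR components were thus all represented.

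Of 27 genes of the TGF-beta and BMP pathway, 6 (22.2%) lay above and 1 below (3 and 7 after division by library totals). The receptor gene Bmpr2 held 3 and 3, then 4 and 6, and the signal transducers Smad5 and Smad1 held 2 and 2, then 6 and 4, and 5 and 4, then 6 and 7. With Smurf2 and Skil, inhibitors as well as receptors and Smads lay above. Tgfbr2, the type II TGF-beta receptor, lay below with 4 and 4, then 3 and 3. Of 33 Wnt pathway genes, 7 (21.2%) lay above and 1 below (6 and 9 after division). Besides Fzd8, the receptor gene Ryk held 2 and 2, then 4 and 4, and the ligand gene Wnt7b held 0 and 0, then 2 and 2. Ctnnb1, which encodes beta-catenin, held 1 and 1, then 2 and 2, and Bcl9, its coactivator, lay below with 2 and 3, then 1 and 1. Of 25 Notch pathway genes, 5 (20%) lay above and 2 below (4 and 10 after division). The receptor genes went opposite ways, with Notch1 at 0 and 0, then 1 and 3, and Notch2 at 4 and 3, then 2 and 2, and the effector Hey1 held 0 and 2, then 3 and 3.

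Circadian clock genes had the highest share above of the 31 lists. Of 15 measured, 7 (46.7%) lay above and 0 below, the median difference was 1 entry, and after division by library totals 4 lay above and 3 below. The partners Clock and Arntl, which form the activating heterodimer of the clock, held 1 and 3, then 4 and 4, and 1 and 2, then 3 and 3. Npas2, a paralogue of Clock, held 0 and 0, then 2 and 3. Per2, a repressor of that heterodimer, held 1 and 2, then 4 and 4. Bhlhe41, a repressor of clock genes, held 3 and 3, then 4 and 5, and Hlf, a transcription factor under clock control, held 1 and 1, then 2 and 2.

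Transcription factors of neurogenesis lay above in part. Of 25 proneural and neuronal factor genes, 6 (24%) lay above and 1 below (6 and 4 after division by library totals), and 10 held 0 in all 4 libraries. Sox4, a factor of neuronal maturation, held 2 and 0, then 6 and 3. Ebf1, the early B-cell factor, and Eomes, a T-box factor of intermediate progenitors, each held 0 and 0, then 2 and 2. Neurog1, a proneural factor, held 0 and 0, then 1 and 1, and Dlx2, a factor of interneuron precursors, lay below with 4 and 4, then 3 and 2. Of 21 neural progenitor genes, 5 (23.8%) lay above and 0 below (3 and 5 after division). Rest, a repressor of neuronal genes, held 2 and 5, then 6 and 6, and Fgfr1, a receptor for fibroblast growth factors, held 1 and 2, then 3 and 3. Progenitor genes and neuronal factors thus both had members above. Of 30 immediate early genes, 2 lay above and 1 below (1 and 15 after division). Klf10 held 0 and 1, then 2 and 2, and Jun, an AP-1 subunit, was not separated, with 0 and 0, then 5 and 0.

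Histone modifying enzymes showed no single direction. Of 17 histone lysine demethylase genes, 5 (29.4%) lay above and 1 below (4 and 5 after division by library totals). Besides Kdm7a, Jmjd1c held 1 and 2, then 4 and 4, Kdm5b held 0 and 0, then 4 and 1, and Riox1 held 2 and 1, then 4 and 4, whereas Kdm2a held 3 and 3, then 1 and 2. Of 24 lysine methyltransferase genes, 5 (20.8%) lay above and 0 below (3 and 7 after division), among them Ezh2, the catalytic subunit of Polycomb repressive complex 2, with 3 and 4, then 5 and 5. Setd7 was not separated, since it held 0 at 1 h and 6 or 7 at the other 3 times compared. Of 34 Polycomb and DNA methylation genes, 6 (17.6%) lay above and 2 below (3 and 15 after division). Rybp, a subunit of Polycomb repressive complex 1, held 3 and 0, then 7 and 4, Phc1 held 2 and 1, then 5 and 4, and Eed, a partner of Ezh2, lay below with 5 and 5, then 4 and 4. Of 39 chromatin remodeller genes, 7 (17.9%) lay above and 2 below (5 and 17 after division), with the ATPase gene Smarca2 at 0 and 0, then 5 and 2, and the BAF complex subunit Smarce1 at 7 and 5, then 4 and 4. Of 19 acetyltransferase and deacetylase genes, 2 lay above and 2 below (2 and 11 after division), with Hdac7 at 2 and 0, then 5 and 4, and Hdac1 at 3 and 3, then 2 and 1.

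In 3 lists of mitochondrial metabolism and translation, 0 or 1 gene lay above. A gene can lie below only where both early libraries cover it, and of the 5601 genes so covered 398 (7.11%) lay below. Of 14 genes for enzymes of pyruvate entry and the tricarboxylic acid cycle, 0 lay above and 3 (21.4%) below, with a median difference of -0.5 entries (0 and 10 after division by library totals), and all 14 were covered at both early times. Sdha, a subunit of succinate dehydrogenase, held 3 and 3, then 2 and 2, the same values as Suclg2, a subunit of succinyl-CoA ligase, and Pcx, pyruvate carboxylase, held 3 and 3, then 2 and 1. Of 26 respiratory chain and ATP synthase genes, 1 lay above and 4 (15.4%) below (0 and 14 after division), which is 4 of the 25 (16%) covered at both early times. Sdha belongs to both lists. The counts are small and the difference from all genes was not tested. The complex I genes Ndufv2 and Ndufc1 held 3 and 3, then 2 and 2, and 2 and 2, then 1 and 1. Each of these is a step of 1 or 2 entries. Of 22 mitochondrial ribosomal protein genes, 0 lay above and 2 below (0 and 15 after division), with Mrpl48 at 4 and 4, then 2 and 3.

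Other mitochondrial groups lay the other way or were mixed. Of 13 genes of mitochondrial dynamics and transport, 3 lay above and 0 below (2 and 7 after division by library totals), Trak1 among them, with the calcium uniporter gene Mcu at 2 and 3, then 4 and 4. Of 18 protein import genes, 2 lay above and 1 below (1 and 8 after division). The 2 were Pmpca and Pmpcb, both subunits of the matrix processing peptidase, with 2 and 1, then 3 and 4, and 1 and 2, then 3 and 4. Of 13 genes listed for the maintenance and expression of mitochondrial DNA and RNA, a list that includes nuclear transcription regulators, 2 lay above and 0 below (0 and 7 after division): Gabpa, an ETS family transcription factor, which shares its region and values with Atp5j, and Grsf1, an RNA granule protein, with 2 and 1, then 3 and 3. Of 14 glycolysis genes, 2 lay above and 2 below (0 and 7 after division). The genes above were Pfkfb2 with 5 and 3, then 6 and 6, and Pfkfb3 with 3 and 2, then 4 and 4. Their enzymes make a regulatory sugar bisphosphate that is not an intermediate of glycolysis. The genes below, Eno2 with 3 and 2, then 1 and 1, and Ldha with 6 and 6, then 5 and 5, act in the glycolytic path itself. Gapdh was not separated, with 6 entries at 0 h and 0 at 1, 1.5 and 2 h.

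Cell cycle and gene expression machinery differed by group. Of 22 G1/S and replication genes, 5 (22.7%) lay above and 0 below (1 and 11 after division by library totals), each by 1 to 1.5 entries, with Ccne1, E2f1 and Cdc25a each at 2 and 2, then 3 and 3. Of 22 mitosis genes, 1 lay above and 2 below (1 and 15 after division), with Plk4, the kinase of centriole duplication, at 4 and 4, then 3 and 2. Of 38 cytosolic ribosomal protein genes, 1 lay above and 2 below (0 and 21 after division), and of 41 translation factor genes, 2 and 4 (1 and 17 after division). Of 57 splicing factor genes, 6 (10.5%) lay above and 7 (12.3%) below (3 and 30 after division). Both early libraries covered 53 of the 57, and of all genes so covered 7.11% lay below. The SR protein genes that were called, Srsf3, Srsf9 and Srsf11, and the related Tra2b lay below, with Srsf3 at 4 and 4, then 2 and 2, whereas 4 of the 5 heterogeneous nuclear ribonucleoprotein genes called lay above, among them Hnrnpu with 2 and 2, then 4 and 4. That contrast was noticed after the values were seen and covers called genes only. Of the 57 genes 44 were not called, and how many members of each family were measured was not counted. The share of either family in a direction is therefore not given.

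The remaining lists were close to all genes or small. Of 159 genes of ubiquitin ligases and deubiquitinases, 26 (16.4%) lay above and 11 below (19 and 63 after division by library totals), with Trim47 at 0 and 0, then 3 and 4, and Usp24 at 3 and 0, then 6 and 4. Of 75 genes of cytoskeleton, adhesion and motors, 9 (12%) lay above and 5 below (3 and 29 after division). The integrin genes Itga6, Itgav, Itgb1 and Itgb5 were among the 9, each with a gap of 1 entry. Itga6 held 1 and 2, then 5 and 3, and Itgb1 held 3 and 3, then 4 and 4. How many integrin genes were measured was not counted, so their share above is not given. Of 55 chaperone and unfolded protein response genes, 6 lay above and 4 below (3 and 25 after division), of 25 nuclear receptor and coregulator genes 3 and 0 (2 and 5), of 22 FoxO and growth factor withdrawal targets 3 and 0 (3 and 11), and of 14 sterol and fatty acid synthesis genes 1 and 2 (0 and 7). Ppp1r15a, which ends the stress-induced block of translation, lay below with 5 and 3, then 2 and 1.

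**Figure D3:**
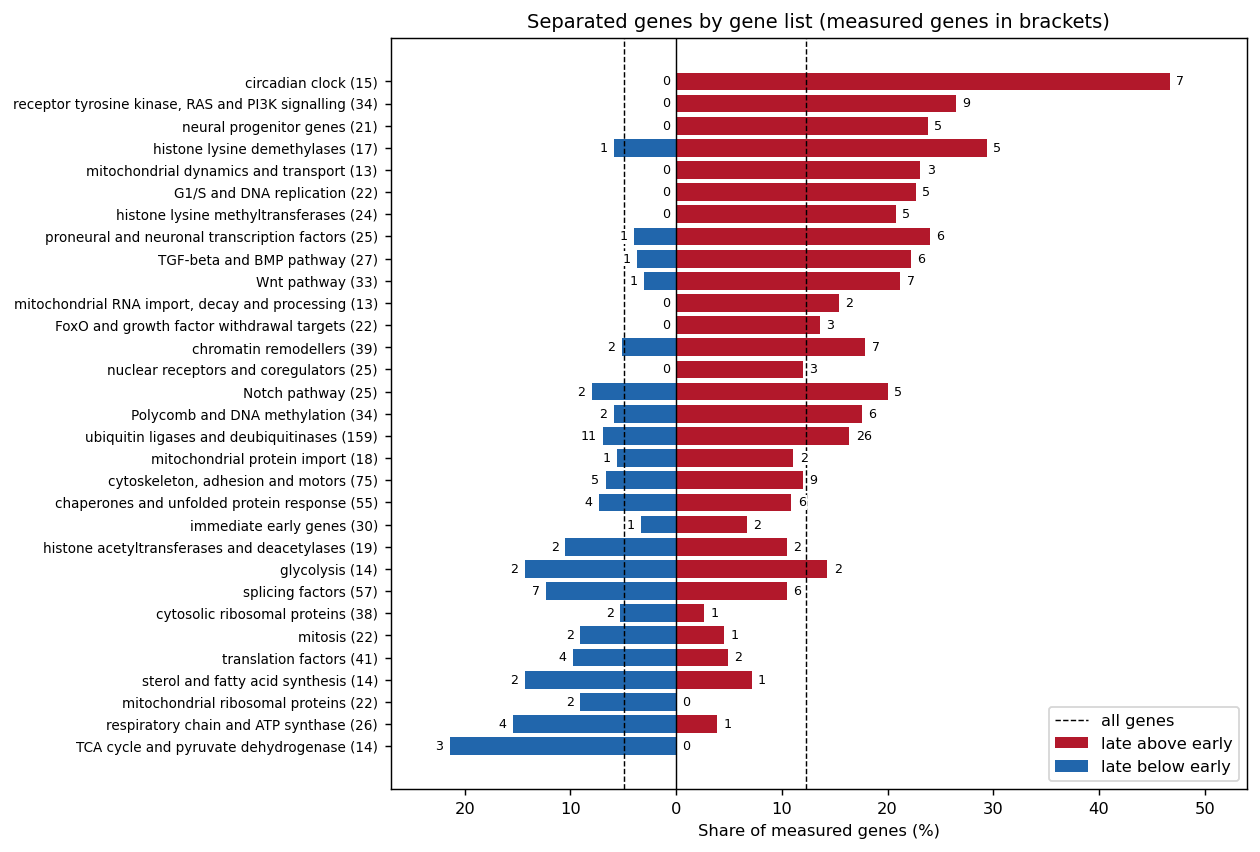
Share of the measured genes of each list that lay above (right, red) or below (left, blue) in the late pair, in percent, with the number of genes at each bar end, the list size in brackets and dashed lines at the 12.3% and 4.95% of all genes. The circadian list reaches 46.7% above, and the TCA cycle list reaches 21.4% below; counts are for entries as deposited, and after division by library totals only the circadian and proneural lists had more genes above than below.

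Sites above and below lay at different distances from gene starts. A gene start of build GRCm38.p6 was matched for 7587 genes and 32112 sites. Sites below had a median position 172 bp downstream of the annotated 5′ end, sites above 338 bp, and all sites 318 bp. From 250 bp upstream to the 5′ end, 18.4% of 4090 sites lay above and 5.45% below. From 250 to 500 bp downstream, 22.9% of 5502 lay above and 3.71% below, and from 500 to 750 bp, 22.7% of 2805 and 2.42%. The share below was highest within 250 bp of the start, where coverage at 0 and 1 h was also highest. Of the sites covered at both early times, 8.53% lay below in the 250 bp upstream, 9.76% in the first 250 bp downstream, 8.79% from 250 to 500 bp and 7.22% beyond 5000 bp, a narrower range. Beyond 5000 bp, 18.7% of 4240 sites lay above and 2.12% below.

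Sites gained late were often in regions already covered early. Of all sites, 3716 (10.7%) held 0 at both early times and were covered at both late ones, whereas 12 (0.0346%) did the reverse. Of the 3716, 2361 (63.5%) lay in a merged region with another site covered at both early times, and 848 (22.8%) in a region with no site covered at either. Of the other 12178 sites at 0 at both early times, 2828 (23.2%) lay in a region with a site covered at both. Within 500 bp of a site covered at both early times lay 2143 of the gained sites (57.7%). In the 3829 regions of 2 or more sites that were covered in all 4 libraries, the covered sites spanned a mean of 235 bp at 0 h and 251 bp at 1 h, against 307 bp at 1.5 h and 301 bp at 2 h, and 286 bp at 0.5 h. Of the sites in these regions, 66.5% and 72.6% were covered early and 88.3% and 87.2% late. Covered stretches therefore reached further along the same regions in both late libraries, beside the higher totals given above, and whether more covered intervals or wider ones go with a deeper library was not tested.

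**Figure D4:**
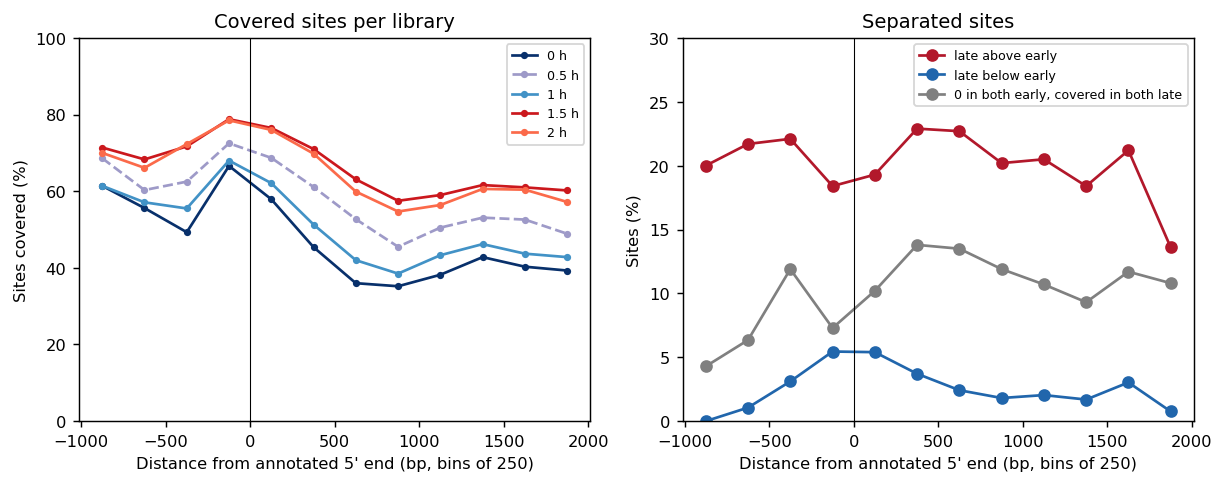
Left, percent of sites covered in each library by distance from the annotated 5′ end of the gene in bins of 250 bp; right, percent of sites separated above (red), below (blue) or gained from 0 at both early times (grey). Both late curves lie above both early ones in every bin, with 0.5 h between them, and the blue curve peaks beside the start at 5.45%.

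Some genes carried long runs of called sites. Asap1, a regulator of ARF GTPases and adhesion, and Sephs1, a selenophosphate synthetase paralogue, had all 22 of their sites above. The sites of Sephs1 held 6 entries throughout at 1.5 h and 5 at 2 h, against at most 2 at 0 and 1 h. Of the 30 sites of Rybp, 21 lay above, and all 30 held 7 entries at 1.5 h. Pcgf5, another Polycomb subunit, had 21 of 28 above. In the other direction, Eif4h, a translation initiation factor, Lbr, the lamin B receptor, Naa35, an acetyltransferase subunit, and Hacd1 each had 12 of 12 sites below. Cbl, a ubiquitin ligase of receptor tyrosine kinases, had 10 of 10. At Naa35 every site held 4 entries at both early and 2 at both late times. Whether the sites of a run lie under the same intervals was not analysed.

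Opposite calls in 1 region were rare. Of the 9217 regions, 1721 held a site above, 408 a site below and 17 both. At Rbm33, a gene of an RNA-binding protein, the 8 sites from 28316855 to 28317095 of chromosome 5 lay below, with 3 entries early and 2 late, and the 3 sites from 28317422 to 28317484 lay above, with 0 early and 2 late. Bend3, a heterochromatin-associated repressor, had the same layout, with 3 sites near the start at 3 entries early and 2 late and 5 sites downstream at 0 early. At Heca 6 sites lay in each direction, at Zfp800 5 above and 9 below, and at Aebp2, a Polycomb cofactor, 3 and 2. In all 5 of these genes the sites below were nearer the annotated start than the sites above. They were not all close to it: the nearest called site lay 135784 bp downstream at Zfp800 and 1024 bp downstream at Aebp2. At these genes the entries differed by position within the gene, so a single site per gene does not give their whole course.

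The 0.5 h library, which no call used, lay between the pairs on average. The genes were chosen because the pairs differ at them, so a mean between the pairs can follow from that choice alone. Over the 990 genes above, the mean at 0.5 h was 2.32 entries, against 1.24 and 1.34 in the early pair and 3.35 and 3.16 in the late pair. Over the 398 genes below it was 3.01, against 3.54 and 3.45 early and 2.15 and 2.05 late. Gene by gene, the 0.5 h value was level with or beyond the early pair in 487 of the 990 genes above (49.2%), level with or beyond the late pair in 433 (43.7%) and strictly between in 70. For the genes below these numbers were 241 (60.6%), 142 (35.7%) and 15. Entries are whole numbers, so no value could lie strictly between in the 677 genes above and 355 below whose gap was 1 entry. With a gap of 2 or more entries, 141 of 313 genes above stood with the early pair, 102 with the late and 70 strictly between. Of the 43 below, these numbers were 18, 10 and 15. The time order would place 0.5 h beside the early libraries, and for a large minority of genes in both directions it stood with the late ones. Its total of 56773 entries also lay between those of the pairs.

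Grouped by their 0.5 h value, the genes called below were almost all covered at that time. Of the 1942 genes with 0 entries at 0.5 h, 166 (8.55%) lay above and 3 (0.154%) below. A gene can lie below only where both early libraries cover it, and how many of the 1942 were so covered was not counted. Of the 1861 with 3 entries, 11.1% lay above and 7.63% below, and of the 140 with 6 or more, 21.4% and 9.29%. The share above was lowest at 0 entries and was 19.8% at 1 entry, so it did not follow the 0.5 h value in a single direction.

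**Figure D5:**
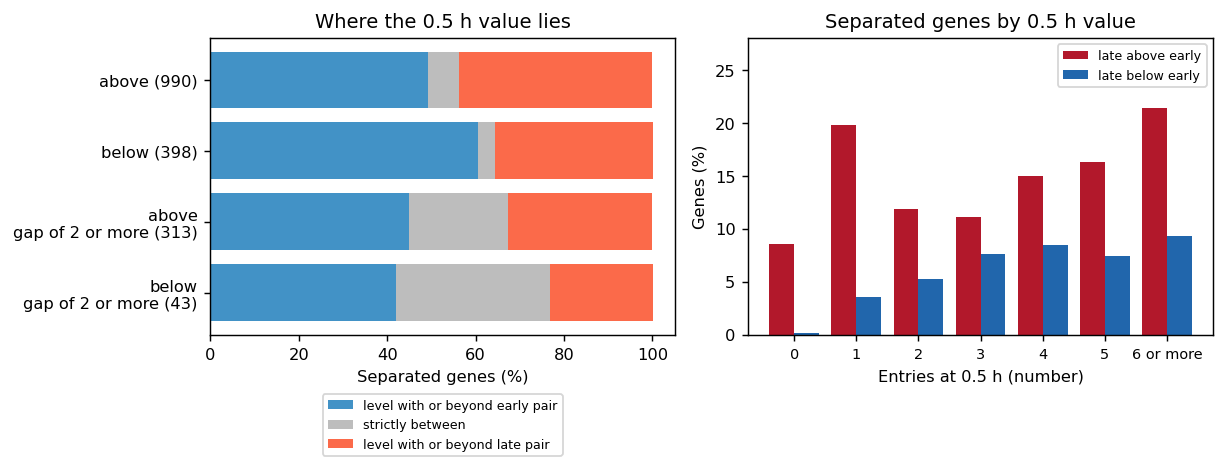
Left, percent of separated genes (number in brackets) whose 0.5 h value was level with or beyond the early pair (blue), strictly between (grey) or level with or beyond the late pair (red); right, percent of genes above (red bars) and below (blue bars) by number of entries at 0.5 h. Of the genes above, 43.7% stand with the late pair at 0.5 h, and 0.154% of the genes with 0 entries at 0.5 h lie below. A gene can lie below only where both early libraries cover it.

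Promoters of genes above were richer in CpG than those of genes below. A RefSeq promoter within 1000 bp of the site was found for 5168 genes, 678 above and 288 below. The median GC content was 70% for genes above, 65.7% for genes below and 66.7% for all 5168, and the median number of CpG dinucleotides in the 300 bases was 32, 27.5 and 28. The ETS motif CCGGAAG, searched like all motifs on both strands, was present in 12.5% of promoters above, 21.5% below and 15.9% of all, and in 8.86% of the 32851 promoters of the whole table. The cyclic AMP response element TGACGTCA was present in 2.65%, 5.21% and 3.41% (1.79% in the whole table), and the TATA motif TATAAA in 3.98%, 7.29% and 6.4% (13.6%). The SP/KLF motif GGGCGG was in 80.7%, 79.2% and 79.3% (35.7%), the NF-Y motif CCAAT in 29.6%, 32.3% and 33.7% (37.4%), and the E-boxes CACGTG and CAGCTG in 10.2%, 12.2% and 11.1% (7.15%) and in 11.1%, 14.2% and 13.5% (16.3%). The AP-1 motifs TGAGTCA and TGACTCA, which are reverse complements, were in 2.21%, 2.78% and 2.55% (5.2%). Of the 6 promoters printed above, all hold GGGCGG or its complement, and Foxp1, Rictor and Rffl hold CCAAT or its complement. Every gene below was covered at both early times, which was not so for every gene above or for all 5168. The differences between the groups were not tested. A match is a description of these letters and not a bound site.

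Few marker genes of cell types were among the listed sites. Of 10 neural progenitor markers 5 were measured: Hes1 held 1 entry in every library, Nes held 2 at 1.5 h and 0 otherwise, Notch1 was separated as given above, and Msi1 and Pax6 held 0 throughout, so the label of the cells could not be checked well on these sites. Over these 5 genes the summed entries were 1 at 0 h and 1 at 1 h against 4 and 4 late. Of 2 measured neuronal markers, Map2 held 2 entries in every library and Rbfox3 0. Of the oligodendrocyte lineage markers, Mbp, Olig1 and Olig2 held 0 throughout and Pdgfra held 3 or 4. No astrocyte marker was among the sites, Epcam of epithelial cells held 0 and Cx3cr1 of microglia held 2 in every library. Twist1, a mesenchymal factor, held 2 and 3 early, then 6 and 4. In these bulk nuclei, a difference in the share of cells with an open site and a difference per cell cannot be told apart.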

How the data were processed

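ATAC-seq was run on 5 libraries, 1 at each of 5 times. The tools Bowtie2, MACS2 and deepTools and the build GRCm38, or mm10, come from the submitters' processing notes. Versions, settings, read shifting, duplicate handling and how the site list was made were not given in the sources used here. Whole numbers per site and library were deposited by the authors, in columns named after BED files per the file headers, and were read here as numbers of entries; this is an inference from the values. Calls, merging of sites within 500 bp and gene values were computed with pandas 2.3.3 and numpy 2.4.6, after checks on simulated data. The 0.5 h library entered no call.

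The members, the 31 gene lists and the markers were chosen with earlier results of these data known. Named genes were the 15 regions with the widest gap in each direction (then the largest difference of pair means, then symbol; predicted Gm and Rik genes and Galnt2l, a symbol spread over many sites, left out), up to 4 members per list with the largest difference, and the 5 genes with the most sites in each direction or in both; other separated list members, such as Sos1, Notch2, Eed or the SR protein genes, and the cell type markers were named after their values were seen. Alternatives were a wider gap, 2 scalings, a filter on low values, other gene values and merge distances, and leaving out each library.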

Additional observations from a re-analysis of the deposited data

How the results depend on the processing

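Of 70 alternative values, 36 stayed within 1.5 times the value reported. A gap of 2 or more left 3681 sites above and 185 below, and 313 and 43 genes. Division by library totals gave 8355 sites and 3190 genes below, and the share of calls that lay above went from 84.4% to 40.9% over sites and from 71.3% to 17.9% over genes. Division by the mean of covered sites, with a gap of at least 1 entry after scaling, gave 4104 sites and 365 genes above, and the gene share became 47.8%. Without that minimum gap, all 990 genes above and all 398 below kept their direction under the same scaling. The mean over a gene's sites gave 1586 genes above (80.5% of calls), and 949 with a gap of 1 or more, added after seeing the data. With covered taken as 2 or more entries, 344 of the 8034 genes were gained and 76 lost, against 264 and 5 with 1 or more. Leaving out each library in turn gave 8300 to 9924 sites above and 1954 to 3240 below, 1339 to 1715 genes above and 646 to 1107 below, 1411 to 1802 regions above and 659 to 1142 below, 318 to 469 genes gained and 8 to 26 lost. An order over 3 libraries is easier to meet than one over 4. No paired analysis was possible because each time has 1 library. How precise 1 value is could not be worked out, as read depth is unknown.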

Other observations

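Sites without a gene symbol were called less often than named ones in the table. Of 762 such sites, 5.25% lay above and 1.71% below, against 19.7% and 3.62% of the 33952 named sites, and 30.6% of them were covered at 0 h against 47.9%. Genes with Gm or Rik symbols, mostly predicted or non-coding genes, lay above in 10.6% and below in 3.3% of 971, against 12.6% and 5.18% of 7063 others. By chromosome, the share of merged regions above ran from 8.65% on chromosome 18 to 13.4% on chromosome 6, and the share below from 1.6% of 564 regions on chromosome 8 to 6.52% of 506 on chromosome 9, leaving aside the 14 regions of the Y chromosome, of which 0 were called. None of these differences was tested.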
